A study of Homo sapiens with 12 samples.

Results

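The 4 libraries that carry the replicate number 3 in a study of calcineurin inhibitors were set against the 8 libraries that carry the numbers 1 and 2. They are 4 of 12 libraries in all, 1 for each treatment, and they were taken by the number in the library's name. The study used a conditionally immortalized human podocyte line, in which a temperature-sensitive SV40 T gene is switched off at the higher culture temperature so that the cells differentiate. All cultures were differentiated cells of this single line, kept in medium with serum and exposed for 24 h to 100 nM of the calcineurin inhibitor cyclosporine A (CSA), to the same dose of tacrolimus (TAC) or of voclosporin (VCS), or to the vehicle DMSO, with 3 libraries per treatment. Each treatment thus gave 1 library numbered 3 and a pair numbered 1 and 2, and each difference below was taken within treatments. What a number stands for (a well, a passage, a thaw or a day) is not said in the labels, so the p-values measure the spread between these libraries, which may be technical.

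Podocytes are the epithelial cells that wrap the glomerular capillaries and hold the slit diaphragm of the kidney filter. A poly(A) library of such cells samples several pools of RNA. Mitochondrially encoded RNAs are made inside the organelle from its own small genome, messenger RNAs are exported to the cytoplasm, and a group of long noncoding and incompletely spliced transcripts stays in the nucleus. Interferon-stimulated genes encode antiviral proteins and are switched on through the interferon-stimulated response element, a promoter motif bound by transcription factors that interferon activates. Immediate-early genes such as EGR1 respond within minutes to growth factors and stretch.

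The libraries numbered 3 held between 28808213 and 36077072 counts, and the other 8 between 31009131 and 34193951. No difference in total counts was detected by an exact permutation of the number 3 within treatments (two-sided p = 0.494 over 81 arrangements), nor in the number of genes with a count (28636 to 29296 in the libraries numbered 3, 28419 to 29225 in the others, p = 0.247). The smallest p this test can give is 0.0123. The podocyte genes NPHS1 (nephrin) and PTPRO, a receptor phosphatase of foot processes, were too low to be tested, with 3 to 8 and 2 to 7 counts in the libraries numbered 3, against 1 to 11 and 4 to 13 in the others. WT1, a podocyte transcription factor, lay near 1 CPM (counts scaled to a common library size), while ACTN4 and SYNPO, which organise the actin of foot processes, were well expressed.

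Libraries numbered 3 differed from the others in 4537 of 19784 tested genes (22.9%), at an adjusted p under 0.05 in edgeR's quasi-likelihood test with treatment as a block. Of these, 2334 genes (11.8% of those tested) were higher and 2203 (11.1%) were lower in the libraries numbered 3. These 2 shares are the background for the counts of each gene list below with all 12 libraries. The share called lower rose with the mean level of a gene. In the lowest of 5 equal classes by mean level, 4.55% were called higher and 1.19% lower. In the highest class 11.8% were called higher and 22.8% lower, and the lists were not matched for level. The differences were mostly small: 718 higher and 202 lower genes differed at least 1.5-fold, and 187 and 77 at least 2-fold. The genes called higher had a median log2 fold change of 0.42 and those called lower one of -0.30. The libraries numbered 3 lay above all 8 others in 1062 tested genes (5.37%) and below all 8 in 892 (4.51%), and 1820 of the called genes were apart in this way. In bulk RNA, fewer cells of a type and less RNA per cell cannot be told apart. In 3601 of the 4537 called genes the library numbered 3 lay on 1 side of both other libraries in all 4 treatments. This count is partly fixed, because each treatment entered the call.

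**Figure D1:**
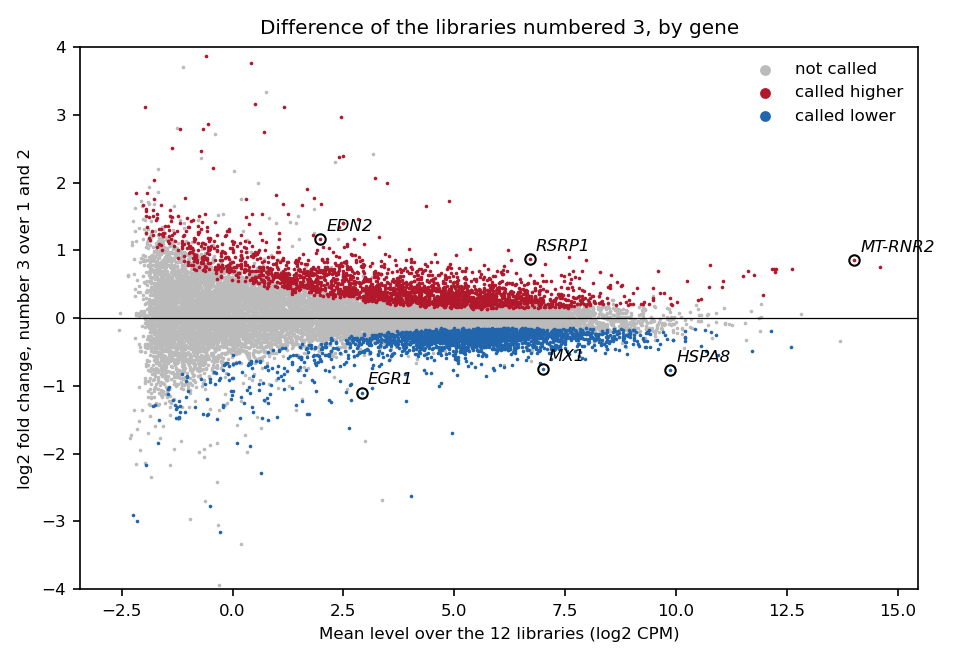
log2 fold change of the 4 libraries numbered 3 over the 8 numbered 1 and 2 (vertical axis) against the mean log2 CPM over 12 libraries (horizontal axis), 1 point per tested gene, with 12 genes beyond the vertical axis not drawn. Called genes lie on both sides of 0 at all but the lowest levels, and MT-RNR2, RSRP1 and EDN2 lie above it while EGR1, MX1 and HSPA8 lie below.

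Fewer genes differed between the numbers 1 and 2 than between either of them and number 3. In a fit with the 3 numbers as separate levels, 4667 genes (23.6%) differed between number 3 and number 1, 2291 of them higher and 2376 lower. Between number 3 and number 2, 3616 genes (18.3%) differed, 1906 higher and 1710 lower. Between number 2 and number 1, 136 genes (0.687%) differed, 33 higher and 103 lower. The comparisons with numbers 1 and 2 share the libraries numbered 3, and 1312 genes were called higher and 1186 lower in both.

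The size of the result rested on VCS replicate 3 more than on any other library. Without it, 1009 genes were called higher and 840 lower, and 1836 of these 1849 were also called, with the same sign, with all 12 libraries. The counts were 1467 and 1268 without TAC replicate 3, and 1557 and 1264 without DMSO replicate 3. Without CSA replicate 3 they were 2487 and 2714. Counts of a list with a library left out are to be read beside these counts, not beside the shares with all 12 libraries. Among the 4537 called genes, the difference within a treatment had the sign of the common difference for 95.2% of genes in CSA, 99.4% in TAC, 99.9% in VCS and 99.7% in DMSO, which is partly fixed because each treatment entered the call.

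RSRP1, CLK4 and CLK1 were higher in the libraries numbered 3. RSRP1, which was named after its values were seen and encodes an arginine and serine rich protein (chr1:25242237-25338213, with 6 other annotated genes overlapping it), had 137 CPM in CSA, 151 in TAC, 146 in VCS and 161 in DMSO. The 8 libraries numbered 1 and 2 ran from 60.2 to 97.5 CPM, with a median of 82.9. Every library numbered 3 lay above all 8 others (log2 fold change 0.87, SE 0.08, adjusted p = 0.000247). CLK4, a kinase that phosphorylates SR splicing factors, had 25.2, 31.2, 30 and 31.1 CPM in CSA, TAC, VCS and DMSO replicate 3, against 14.2 to 24.1 CPM with a median of 17.1 in the others. These groups did not overlap either (log2 0.69, SE 0.11, adjusted p = 0.00136). CLK1, a kinase of the same family, averaged 62.1 ± 7.28 CPM in the libraries numbered 3 and 41.2 ± 8.13 CPM in the others (SD, n = 4 and 8 here and below, adjusted p = 0.00506 from edgeR, as elsewhere unless another tool is named), with an overlap between the groups.

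Some nuclear long noncoding RNAs were higher too. MALAT1, which sits in nuclear speckles (chr11:65497688-65506516), had 2326, 2582, 2938 and 2885 CPM in CSA, TAC, VCS and DMSO replicate 3, against 1453 to 2301 CPM with a median of 1789 in the others. NEAT1, the scaffold of paraspeckles, had 1277, 1619, 1636 and 1578 CPM in the same order, against 843 to 1265 CPM with a median of 1084 in the others. Both were above all 8 other libraries, with log2 fold changes of 0.55 and 0.54 (SE 0.09 each) and adjusted p-values of 0.00125 and 0.00141. Of 17 tested nuclear long noncoding RNAs, 6 were higher (MALAT1, NEAT1, MEG3, PVT1, FTX and KCNQ1OT1) and none was lower in this test (8 had an unadjusted p under 0.05, and DESeq2 called 6 higher and 1 lower), with a median log2 fold change of 0.23 against -0.001 over all tested genes. Over all 3011 tested long noncoding RNA genes the median was 0.21, with 14.4% called higher and 1.89% lower. The median of this list was thus near that of its gene type. Whether the counting used the strand is not stated, so a noncoding RNA and a gene on the other strand cannot be told apart.

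Further genes named after their values were seen were higher too. PNISR and LUC7L3, both serine and arginine rich nuclear proteins, had log2 fold changes of 0.64 (SE 0.08) and 0.59 (SE 0.09). WSB1, a substrate receptor of a ubiquitin ligase, averaged 415 ± 38.6 CPM in the libraries numbered 3 and 261 ± 46 CPM in the others (SD). GOLGA8A, a golgin with near-identical copies that could share its reads, averaged 358 ± 36.6 CPM in the libraries numbered 3 and 200 ± 42.5 CPM in the others. The adjusted p-values of these 4 genes were between 0.000578 and 0.000922. In the list of snoRNA host genes and targets of nonsense-mediated decay, 6 of 27 tested members were higher, among them SRSF6, TRA2A, CCNL1, CLK1 and CLK4, and 2 were lower (SNHG29 and SMG5), with a median of -0.03 and 13 members above and 14 below 0. Without VCS replicate 3 these counts of calls were 3 and 1, and without TAC replicate 3 they were 3 and 2.

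By gene type, higher calls outnumbered lower calls in the classes given here other than protein-coding genes. Among 3011 tested long noncoding RNA genes, 14.4% were called higher and 1.89% lower, with a median log2 fold change of 0.21. Transcripts annotated as sense intronic, which lie within introns of other genes, were called higher in 21.3% and lower in 0.562% of 178 cases (median 0.45). The class labelled TEC, unspliced transcripts whose coding status awaits experiment, stood at 22.4% and 0.380% of 263 genes (median 0.39). Pseudogenes stood at 10.5% and 3.38% of 798 genes, so that only their share of lower calls was unlike that of protein-coding genes. Nuclear protein-coding genes were the other way round, with 10.9% higher and 14.1% lower among 14781 genes and a median of -0.03. The mean level of a gene moved with the result too: the median was 0.12 in the lowest of 5 equal classes by mean level and -0.07 in the highest, and its part in the result was not tested.

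Protein-coding genes differed by how many of their annotated transcripts retain an intron. Genes with no such transcript were called higher in 8.45% and lower in 14.6% of 6637 cases. Where over 50% of a gene's transcripts are annotated with a retained intron, 17.8% were called higher and 11% lower, of 562 genes. The median log2 fold changes were close, at -0.05 with no such transcript and 0.01 with over 50%. They were -0.03 and -0.01 in the classes between. Genes with a GC content of the transcript of 58.83% or more, the highest of 5 equal classes, were called higher in 15.2% and lower in 8.12% of cases. The counts per gene do not separate spliced from unspliced reads, so intron retention itself was not measured.

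**Figure D2:**
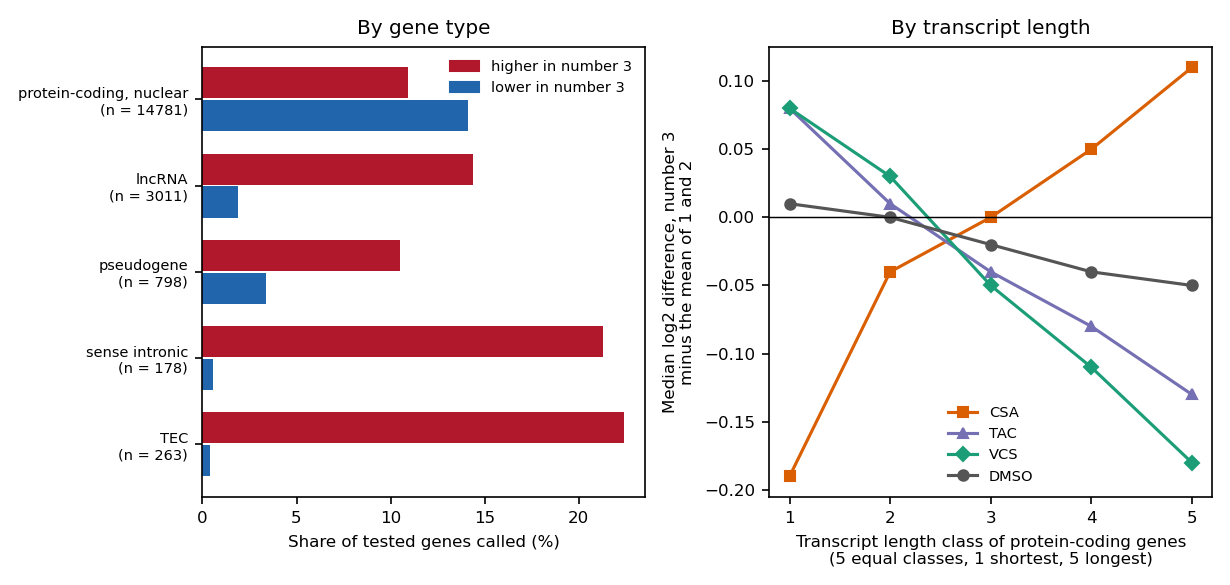
Left, share of tested genes called higher (red) and lower (blue) in the libraries numbered 3 by annotated gene type (per cent, bars from 0). Right, median log2 difference between number 3 and the mean of numbers 1 and 2 in 5 equal classes of transcript length of protein-coding genes, 1 line per treatment: CSA goes up with length, from -0.19 to 0.11, and VCS goes down, from 0.08 to -0.18.

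By transcript length, the difference in CSA ran the other way from those in the other 3 treatments. In CSA the median log2 difference ran from -0.19 in the class of protein-coding genes with the shortest transcripts (up to 1937 bases) to 0.11 in the class with the longest (5721 bases and over). In TAC it ran from 0.08 to -0.13, in VCS from 0.08 to -0.18 and in DMSO from 0.01 to -0.05. Over all treatments the medians nearly cancelled, at -0.01 and -0.06. Across the 19784 genes, the differences in CSA had a Pearson correlation of 0.19 to 0.22 with those in the other treatments, while TAC and VCS had 0.53, TAC and DMSO 0.38, and VCS and DMSO 0.43. These are descriptions across genes, which are not independent, and each difference rests on 3 libraries that share their depth and length profile over all genes.

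Every mitochondrially encoded RNA was higher in the libraries numbered 3. They took 9.68% of the counts in CSA, 10.1% in TAC, 13.4% in VCS and 10.8% in DMSO replicate 3, against 5.82 to 8.12% in the other 8 libraries, a difference given here with no test. All 15 RNAs tested, mRNAs and ribosomal RNAs, were called, with log2 fold changes from 0.46 to 0.85 and a median of 0.70. MT-RNR2, the large mitochondrial ribosomal RNA (chrM:1671-3229), had 19001, 22137, 30016 and 23084 CPM in CSA, TAC, VCS and DMSO replicate 3, against 10864 to 14850 CPM in the others (median 12740). MT-CO1, a catalytic subunit of cytochrome c oxidase, had 31430, 31204, 40031 and 32958 CPM in the same libraries, against 16639 to 24266 CPM in the others (median 19947). Neither overlapped between the groups, with log2 fold changes of 0.85 (SE 0.09, adjusted p = 0.000353) and 0.75 (SE 0.10, adjusted p = 0.000656).

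**Figure D3:**
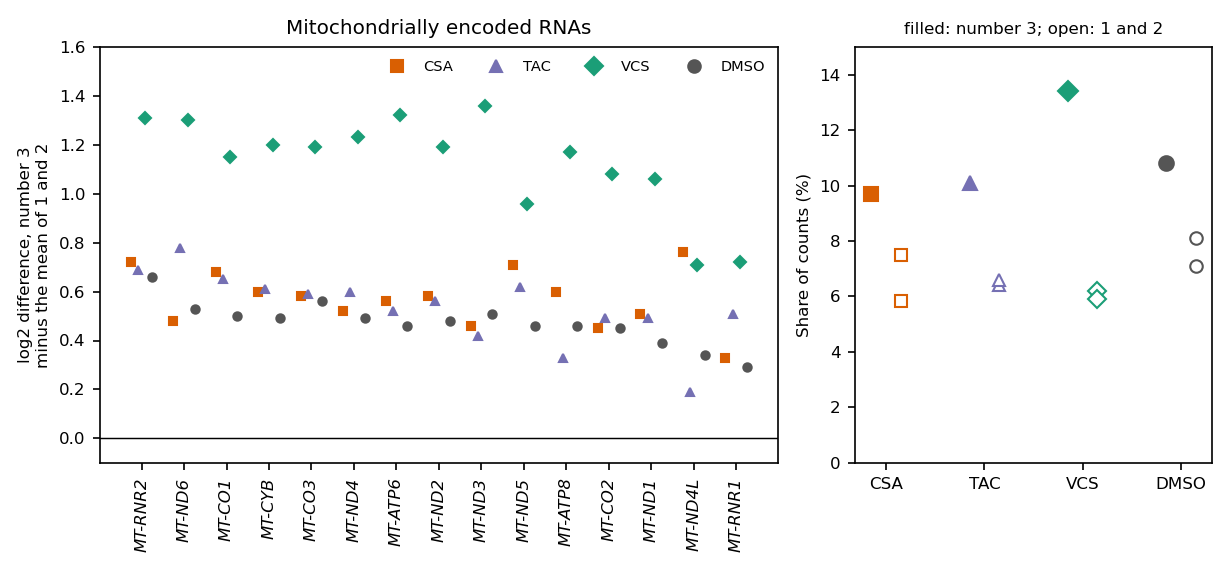
Left, log2 difference between number 3 and the mean of numbers 1 and 2 for 15 mitochondrially encoded RNAs in each treatment. Right, share of all counts in these RNAs in each library (per cent), with VCS replicate 3 at 13.4% and the libraries numbered 1 and 2 at 5.82 to 8.12%. Every left-hand point lies above 0, and VCS is the highest for all RNAs but MT-ND4L.

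The nuclear side of the mitochondrion did not follow, in lists set against 11.1% of all tested genes called lower and 11.8% higher. In the highest of 5 equal classes by mean level, 22.8% of genes were called lower. Of 34 tested respiratory chain subunits encoded in the nucleus, none was higher in this test and 9 were lower (11 had an unadjusted p under 0.05, and DESeq2 called 0 higher and 10 lower), with a median of -0.08. The median difference over the list was -0.33 in CSA, against 0.04 in TAC, 0.03 in VCS and -0.02 in DMSO, and without CSA replicate 3 there were 2 higher and 9 lower members. ATP5F1B, the catalytic beta subunit of ATP synthase, had 304, 283, 274 and 251 CPM in CSA, TAC, VCS and DMSO replicate 3, against 315 to 428 CPM with a median of 387 in the others. The groups did not overlap (log2 -0.45, SE 0.07, adjusted p = 0.00105). Of 27 tested genes of mitochondrial transcription, RNA processing and import, 8 were lower and 1 was higher, and 2, 3 and 4 were lower without VCS, DMSO and TAC replicate 3. The lower members include TFAM, which packages mitochondrial DNA (log2 -0.21, SE 0.05), and GRSF1, an RNA-binding protein of mitochondrial RNA granules (log2 -0.29, SE 0.06), while FASTKD1, which lowers the level of a mitochondrial mRNA, was the higher one (log2 0.37, SE 0.08). Their adjusted p-values were 0.0108, 0.00551 and 0.00582. Of 8 tested nuclear copies of mitochondrial genes 6 were higher, and their reads may have been shared with the mitochondrial genes.

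The share of counts in the 100 top genes was 25.5 to 28.2% in the libraries numbered 3 and 22.6 to 23.6% in the others (exact p = 0.0123, the smallest the test can give, higher in 4 of 4 treatments). Without the mitochondrial genes it was 18.1 to 19.6% in the libraries numbered 3 and 18 to 19.4% in the others (exact p = 0.383). Leaving these genes out of the counts left the calls nearly as they were, with 2316 genes higher and 2211 lower.

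Interferon-stimulated genes were lower in the libraries numbered 3 of all 4 treatments. Of 38 tested members, 28 were lower, set against 11.1% of all tested genes, and 1 (XAF1, a proapoptotic member) was higher. The median log2 fold change was -0.45, and the median difference over the list was -0.37 in CSA, -0.32 in TAC, -0.51 in VCS and -0.49 in DMSO. Between 25 and 29 members were lower with any 1 of the 12 libraries left out. XAF1 averaged 91.8 ± 16.4 CPM in the libraries numbered 3 and 73.8 ± 14.2 CPM in the others (SD, adjusted p = 0.00924), and its call was lost without TAC or VCS replicate 3.

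MX1, a dynamin-like GTPase that blocks influenza virus (chr21:41420304-41459214), had 89.4, 88.7, 72.5 and 99.5 CPM in CSA, TAC, VCS and DMSO replicate 3. The other 8 libraries had 115 to 178 CPM, with a median of 145, so that the groups were apart (log2 -0.75, SE 0.09, adjusted p = 0.000578). HERC6, of a family of interferon-induced ubiquitin ligases, had 38.9, 32.5, 29.2 and 36.3 CPM in the same order, against 48.0 to 68.4 CPM with a median of 63.5 in the others. It did not overlap either (log2 -0.85, SE 0.10, adjusted p = 0.000578). OASL, an oligoadenylate synthetase-like protein, had 2.93, 4.55, 3.61 and 4.15 CPM in the libraries numbered 3, against 5.19 to 9.46 CPM with a median of 7.61 in the others (log2 -0.98, SE 0.16, adjusted p = 0.00138).

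Promoters of members that were lower are shown because 15 of the 22 with a RefSeq promoter in the table hold the interferon-stimulated response element. The motif searched was GAAANNGAAA on both strands, in 250 bases before to 50 after the gene start (RefSeq, GRCh38.p14). It was found in 3.65% of 27305 promoters, 2.92% of 12917 promoters of tested genes and 18 of the 30 promoters of tested members. Over all tested genes it was in 3.51% of the promoters of genes called lower and in 2.69% of those called higher. Capitals mark the motif, or its complement where it lies on the other strand. The promoters lie at chr21:41420308-41420607 (MX1, plus strand), chr10:89392373-89392672 (IFIT1, plus strand) and chr1:1013247-1013546 (ISG15, plus strand).
MX1: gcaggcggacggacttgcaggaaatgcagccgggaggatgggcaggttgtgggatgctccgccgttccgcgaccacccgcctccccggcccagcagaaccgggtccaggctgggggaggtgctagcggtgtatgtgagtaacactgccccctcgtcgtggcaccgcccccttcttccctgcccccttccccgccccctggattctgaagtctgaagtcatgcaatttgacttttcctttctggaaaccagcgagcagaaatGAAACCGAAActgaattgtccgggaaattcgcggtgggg
IFIT1: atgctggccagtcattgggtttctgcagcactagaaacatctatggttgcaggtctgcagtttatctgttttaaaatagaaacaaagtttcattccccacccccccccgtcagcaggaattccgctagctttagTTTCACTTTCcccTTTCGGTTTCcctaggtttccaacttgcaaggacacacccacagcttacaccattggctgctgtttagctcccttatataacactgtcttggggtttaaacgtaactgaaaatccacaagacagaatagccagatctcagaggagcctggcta
ISG15: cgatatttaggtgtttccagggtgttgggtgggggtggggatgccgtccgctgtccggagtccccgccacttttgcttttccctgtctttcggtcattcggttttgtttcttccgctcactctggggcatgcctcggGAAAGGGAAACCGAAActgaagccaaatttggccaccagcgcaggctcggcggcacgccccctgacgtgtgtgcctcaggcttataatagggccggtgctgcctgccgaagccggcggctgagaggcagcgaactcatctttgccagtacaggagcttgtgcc
IFIT1 and ISG15, an RNA-binding antiviral protein and a ubiquitin-like modifier, were named after their values were seen. IFIT1 averaged 108 ± 20.9 CPM in the libraries numbered 3 and 164 ± 23.7 CPM in the others (SD, log2 -0.61, SE 0.09, adjusted p = 0.000951), without overlap. ISG15 averaged 226 ± 48.4 CPM in the libraries numbered 3 and 299 ± 26.3 CPM in the others (log2 -0.43, SE 0.10, adjusted p = 0.00765), with an overlap between the groups.

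Some genes that respond to growth factors and stretch were lower as well. Of 27 tested immediate-early genes, 8 were lower (EGR1, FOS, FOSB, ARC, MAFF, DUSP1, SPRY2 and SPRY4) and 3 were higher (IER5, ZFP36 and CCNL1), with a median of -0.16. Over all tested genes, 11.1% were called lower and 11.8% higher. Without VCS replicate 3 the counts of this list were 4 lower and 0 higher. EGR1, a zinc finger transcription factor (chr5:138465490-138469315), had 4.67, 4.49, 3.40 and 4.25 CPM in CSA, TAC, VCS and DMSO replicate 3, against 6.84 to 10.8 CPM with a median of 8.86 in the others. The groups were apart, with a log2 fold change of -1.10 (SE 0.10, adjusted p = 0.000273), which was -1.06 against number 1 alone and -1.13 against number 2 alone. MAFF, a small Maf protein, had 16.4, 16.3, 17.3 and 18.7 CPM in the libraries numbered 3, against 24.2 to 27.6 CPM with a median of 26.8 in the others, also without overlap (log2 -0.62, SE 0.05, adjusted p = 0.000247).

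The promoter of EGR1 is shown for its CArG boxes, the motif bound by serum response factor, which capitals mark (chr5:138465229-138465528, plus strand). A CArG box was found in 1.29% of the 27305 promoters and in 1 of 21 promoters of tested immediate-early genes, that of EGR1. The motif is its own complement, so both strands were read at once, and no match says only that the window does not hold it.
EGR1: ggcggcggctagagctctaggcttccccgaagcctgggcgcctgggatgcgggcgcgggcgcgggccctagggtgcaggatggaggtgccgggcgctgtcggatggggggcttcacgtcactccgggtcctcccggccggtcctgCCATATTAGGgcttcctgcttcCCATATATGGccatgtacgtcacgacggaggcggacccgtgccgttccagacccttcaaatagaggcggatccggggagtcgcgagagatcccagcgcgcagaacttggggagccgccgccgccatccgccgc

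**Figure D4:**
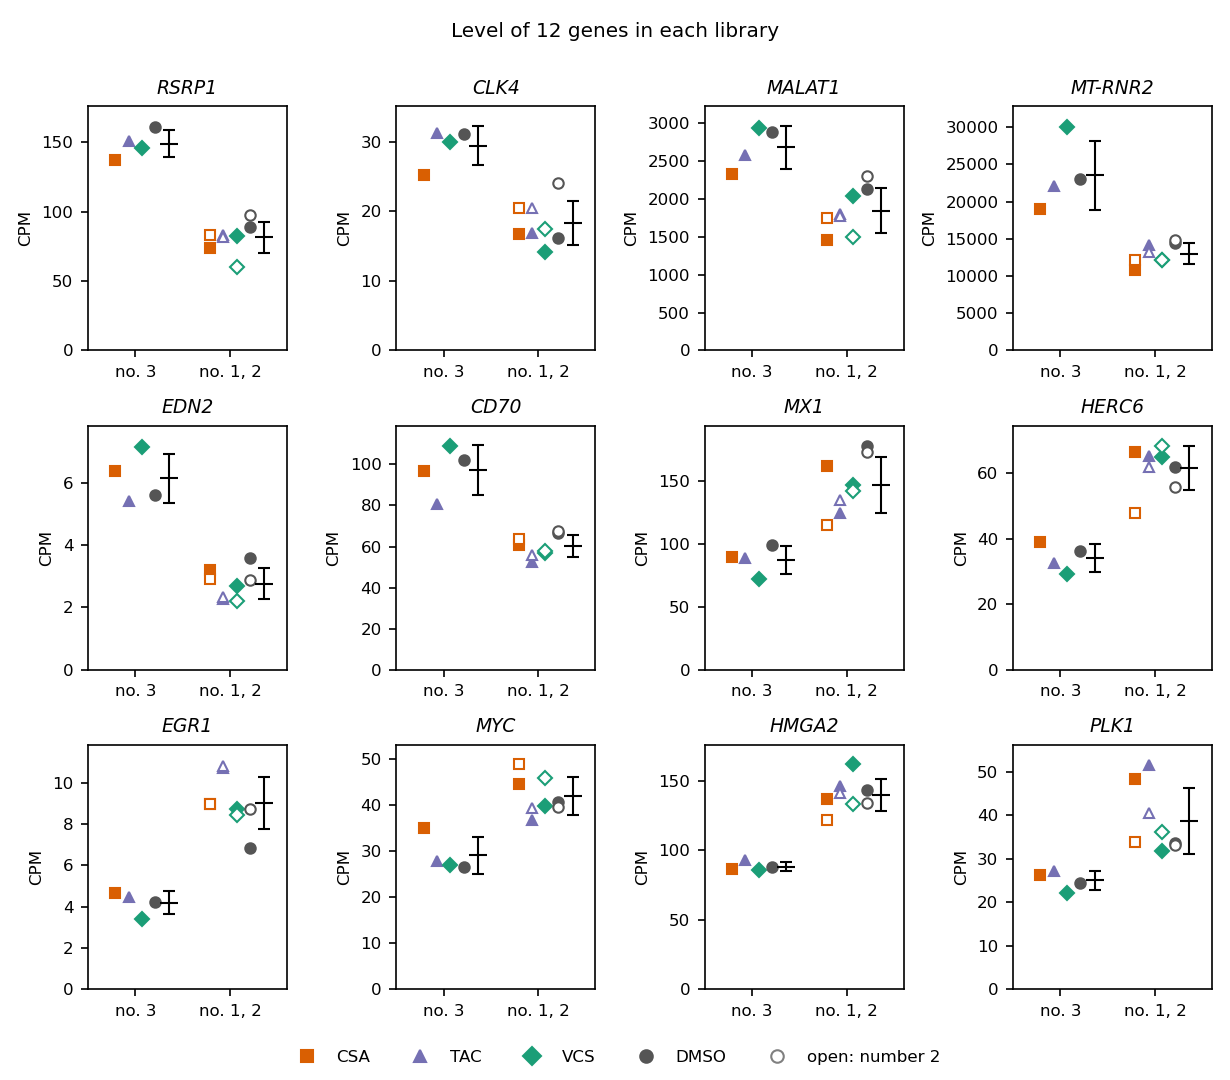
CPM of 12 genes in each library, with the 4 libraries numbered 3 at the left of each panel and the 8 numbered 1 (filled) and 2 (open) at the right, by treatment. Bars give the mean and SD (n = 4 and 8), and in each panel the libraries numbered 3 lie above (RSRP1 to CD70) or below (MX1 to PLK1) all others.

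Several genes of growth and division were lower too. MYC, the growth-promoting transcription factor, had 34.9, 27.8, 26.9 and 26.5 CPM in CSA, TAC, VCS and DMSO replicate 3, against 36.8 to 48.8 CPM with a median of 40.2 in the others (log2 -0.53, SE 0.06, adjusted p = 0.000492). The groups did not overlap. Of 28 tested genes of ribosome biogenesis and MYC targets, 13 were lower and none was higher in this test, with a median of -0.18 (18 had an unadjusted p under 0.05, and DESeq2 called 0 higher and 12 lower). The count of 13 was 6, 5 and 4 without VCS, TAC and DMSO replicate 3. In these fits 840, 1268 and 1264 of all tested genes were called lower, against 2203 with all 12 libraries. Among the 13 were ODC1, the first enzyme of polyamine synthesis (log2 -0.45, SE 0.06), and NOLC1, a nucleolar chaperone (log2 -0.35, SE 0.06), at adjusted p-values of 0.000623 and 0.00164.

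The mitotic kinase PLK1 had 26.3, 27.2, 22.1 and 24.4 CPM in CSA, TAC, VCS and DMSO replicate 3, against 31.7 to 51.5 CPM with a median of 34.9 in the others (log2 -0.62, SE 0.10, adjusted p = 0.0013). No library numbered 3 reached the others. Of 30 tested G2/M and mitosis genes, 10 were lower and none was higher in this test (16 had an unadjusted p under 0.05, DESeq2 called 0 higher and 12 lower, median -0.18), and of 30 genes of G1/S and DNA replication 5 were lower and 1 higher (median -0.12), set against 11.1% of all tested genes called lower and 11.8% higher. The first count was 4 without TAC replicate 3, and the counts of the second list were 2 and 0 without VCS replicate 3. MKI67, the proliferation marker, did not pass (186 ± 29.1 CPM in the libraries numbered 3 and 216 ± 30.8 CPM in the others, SD, adjusted p = 0.176), and neither did the CDK inhibitor CDKN1A (1624 ± 69.6 CPM in the libraries numbered 3 and 1743 ± 230 CPM in the others, adjusted p = 0.499). CCND1, cyclin D1, averaged 454 ± 35.1 CPM in the libraries numbered 3 and 567 ± 45.0 CPM in the others (log2 -0.32, SE 0.06, adjusted p = 0.00213). HMGA2, a chromatin protein of proliferating cells, had 86.7, 92.7, 85.6 and 87.8 CPM in the libraries numbered 3, against 122 to 162 CPM (median 139) in the others (log2 -0.66, SE 0.07, adjusted p = 0.000273). It was named after its values were seen, as was its relative HMGA1 (log2 -0.59, SE 0.06), and neither overlapped.

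EDN2, CD70 and PFKFB4 were higher in the libraries numbered 3. EDN2, the vasoconstrictor endothelin 2, had 6.37, 5.41, 7.15 and 5.60 CPM in CSA, TAC, VCS and DMSO replicate 3, against 2.21 to 3.59 CPM with a median of 2.79 in the others (log2 1.16, SE 0.13, adjusted p = 0.000353). CD70, a ligand of the TNF family named after its values were seen, had 96.8, 80.6, 109 and 102 CPM in the libraries numbered 3, against 52.4 to 67.6 CPM with a median of 59.2 in the others (log2 0.69, SE 0.06, adjusted p = 0.000247). Neither gene overlapped between the groups. PFKFB4, which tunes glycolysis through fructose 2,6-bisphosphate, had 244, 276, 299 and 282 CPM in the libraries numbered 3, against 134 to 185 CPM with a median of 177 in the others (log2 0.70, SE 0.08, adjusted p = 0.000492). It was apart too. Of 36 tested genes of hypoxia and glycolysis 3 were higher and 8 lower (median -0.03), among the lower the glycolytic enzymes ENO1, PGAM1, TPI1, PGK1 and HK1. The lower count was 1 without VCS replicate 3, 2 without TAC replicate 3 and 4 without DMSO replicate 3.

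BTG2, an antiproliferative factor, averaged 62.5 ± 3.87 CPM in the libraries numbered 3 and 45.8 ± 4.89 CPM in the others (SD, log2 0.45, SE 0.07, adjusted p = 0.00124) without overlap. DDIT4, a stress-induced inhibitor of mTORC1, averaged 63.6 ± 2.74 CPM in the libraries numbered 3 and 47.9 ± 2.38 CPM in the others (log2 0.41, SE 0.05, adjusted p = 0.00061) and was apart as well. GDF15, a stress-induced cytokine, averaged 351 ± 30.5 CPM in the libraries numbered 3 and 245 ± 48.1 CPM in the others (adjusted p = 0.00963), with an overlap and an adjusted p of 0.0544 without VCS replicate 3. The other members of the integrated stress response list mostly went the other way or did not pass: of 31 tested, 3 were higher (GDF15, DDIT4 and NUPR1) and 9 lower (median -0.07), and the lower count was 2 without VCS or DMSO replicate 3. HSPA8, the constitutive HSP70 chaperone, had 902, 577, 574 and 506 CPM in CSA, TAC, VCS and DMSO replicate 3, against 646 to 1401 CPM with a median of 1119 in the others (log2 -0.77, SE 0.17, adjusted p = 0.00682). Here CSA replicate 3 lay within the range of the others, and the gene has processed copies that could share its reads. Of 24 tested heat shock genes 5 were higher and 4 lower, 0 and 2 without VCS replicate 3 and 1 and 3 without DMSO replicate 3.

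In some lists the treatments did not move alike, and the difference in CSA was the one that stood aside. Cytosolic ribosomal proteins had a median difference of -0.58 in CSA, 0.07 in TAC, -0.02 in VCS and -0.11 in DMSO. Of 44 tested, 8 were lower and none was higher in this test (15 had an unadjusted p under 0.05, DESeq2 called 0 higher and 13 lower, median -0.16), with 4 lower without VCS or DMSO replicate 3 and 5 without CSA replicate 3. Their share of all counts was 2.38% in CSA replicate 3 and 3.23 to 3.64% in the other libraries numbered 3, against 3.35 to 3.72% in the numbers 1 and 2 (exact p = 0.0617). The same treatment differed the other way in the unfolded protein response (0.26 in CSA, -0.10, -0.08 and -0.06 in TAC, VCS and DMSO), where 5 of 27 members were higher (DNAJB11, PDIA3, DERL2, SYVN1 and CRELD1) and none was lower (7 had an unadjusted p under 0.05, and DESeq2 called 5 higher and 1 lower). Without CSA replicate 3 there were 5 higher and 7 lower. Lysosome and autophagy genes stood at 0.33 in CSA and -0.05 to 0.02 in the other treatments, with 7 of 33 members higher and 1 lower, 1 and 4 without CSA replicate 3 and 1 and 0 without VCS replicate 3. Interstitial matrix genes stood at 0.37 in CSA, -0.25 in TAC, -0.16 in VCS and -0.07 in DMSO, with 5 of 36 higher and 5 lower, the lower count being 0 without VCS or TAC replicate 3. THBS1, the matricellular protein thrombospondin 1, had 3757, 2482, 2225 and 2262 CPM in CSA, TAC, VCS and DMSO replicate 3, against 2780 to 4262 CPM in the others (median 3692). It was called lower (adjusted p = 0.0237) although CSA replicate 3 lay among the others, and the call was lost without TAC, VCS or DMSO replicate 3.

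**Figure D5:**
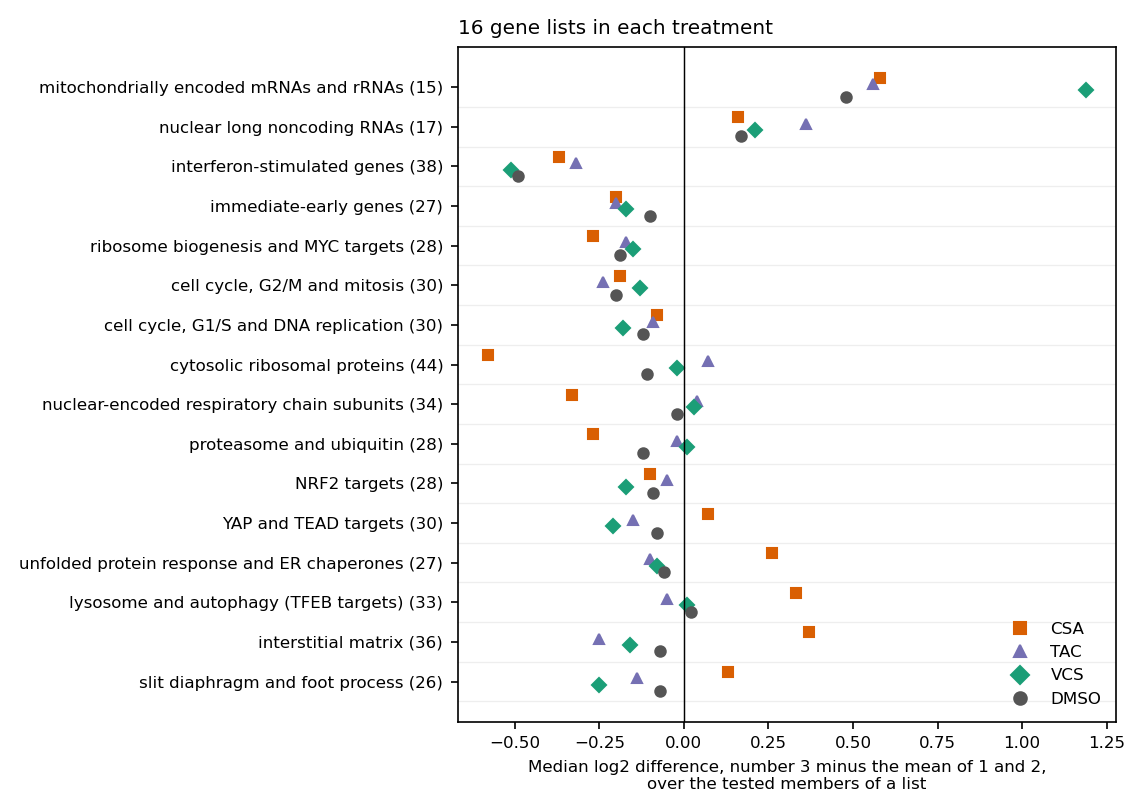
Median log2 difference between number 3 and the mean of numbers 1 and 2 over the tested members of 16 gene lists, 1 symbol per treatment (number of members in brackets). Interferon-stimulated genes lie below 0 and mitochondrially encoded RNAs above 0 in all 4 treatments, while CSA stands apart for ribosomal proteins (-0.58) and interstitial matrix (0.37).

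A direct test of whether the difference of number 3 was unlike between treatments called 3 genes (0.0152%), with 1629 at an unadjusted p under 0.05. It had 4 residual degrees of freedom, and its count depended on the tool: 237 genes passed in DESeq2's likelihood ratio test and 935 in edgeR without a filter on low counts. The 3 genes were ITGB1P1, a pseudogene of integrin beta 1, the readthrough transcript PEDS1-UBE2V1 and the cancer and testis gene SPANXA2 (adjusted p = 0.0319 each). ITGB1P1 had 31.4 CPM in CSA replicate 3 and was listed at 0 in TAC, VCS and DMSO replicate 3, against 11.1 to 30.9 CPM in the other 8 libraries. PEDS1-UBE2V1 was listed at 0 in VCS replicate 3 and had 3.9 to 15.4 CPM in the other libraries numbered 3, against 5.18 to 11.7 CPM in the other 8. All 3 share sequence with other genes, and the part that the assignment of reads among such copies has in these zeros was not tested.

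RCAN1, an inhibitor of calcineurin and a target of NFAT in the pathway that the 3 compounds inhibit, had 151, 166, 153 and 159 CPM in CSA, TAC, VCS and DMSO replicate 3, against 152 to 183 CPM with a median of 163 in the others (log2 -0.06, SE 0.06, adjusted p = 0.445), and the groups overlapped. Of 26 tested genes of calcineurin, NFAT and their targets, 4 were lower (CSNK1A1, PPP3R1, NFATC3 and MEF2C) and none was higher (9 had an unadjusted p under 0.05, DESeq2 called 0 higher and 4 lower, median -0.13), set against 11.1% of all tested genes called lower. The lower count was 2 without VCS replicate 3 and 6 without CSA replicate 3. With number 3 as a term, 24 genes (0.121%) differed between any of the 4 treatments. That count was 10 with no term for the number and 34 with all 3 numbers as levels.

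Among podocyte genes, ACTN4 averaged 1487 ± 128 CPM in the libraries numbered 3 and 1439 ± 74.8 CPM in the others (SD, adjusted p = 0.613), and SYNPO 52.5 ± 10.0 CPM in the libraries numbered 3 and 55.8 ± 6.49 CPM in the others (adjusted p = 0.495). WT1 stood at 0.911 ± 0.257 CPM in the libraries numbered 3 and 1.08 ± 0.315 CPM in the others (adjusted p = 0.504). CD2AP, the adaptor that anchors nephrin, had 102, 106, 88.6 and 86.1 CPM in CSA, TAC, VCS and DMSO replicate 3, against 103 to 136 CPM with a median of 122 in the others. It was lower (log2 -0.33, SE 0.07, adjusted p = 0.00617), with a small overlap. Of 26 tested slit diaphragm and foot process genes 2 were higher (PLCE1 and PLA2R1) and 2 lower (CD2AP and ARHGDIA), with a median of -0.09. The counts were 0 and 7 without CSA replicate 3 and 0 and 1 without VCS, TAC or DMSO replicate 3. CD2AP kept its call with any 1 library left out, while PLCE1 lost it in 9 of these 12 fits and PLA2R1 and ARHGDIA in 10 each. Of 23 podocyte transcription and secreted factors 2 were higher and 2 lower (median -0.04), 0 and 1 without VCS replicate 3.

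The matricellular genes CCN1 and CCN2, classical targets of YAP, went opposite ways. CCN1 averaged 1163 ± 50.9 CPM in the libraries numbered 3 and 988 ± 52.0 CPM in the others (SD, log2 0.24, SE 0.06, adjusted p = 0.0129) without overlap, and its adjusted p was 0.0787 without VCS replicate 3. CCN2 averaged 471 ± 99.4 CPM in the libraries numbered 3 and 614 ± 90.4 CPM in the others (log2 -0.39, SE 0.11, adjusted p = 0.0268), with CSA replicate 3 at 615 CPM among the others, and its call was lost without any 1 of 5 libraries (CSA 1, TAC 3, VCS 3, VCS 2 or DMSO 3). Of 30 tested YAP and TEAD targets 3 were higher and 7 lower (median -0.09), 2 and 2 without VCS replicate 3 and 5 and 11 without CSA replicate 3. Of 32 contractile genes under SRF and MRTF 2 were higher and 5 lower, 0 and 1 without VCS replicate 3 and 2 and 9 without CSA replicate 3.

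In the remaining lists the number of calls moved with single libraries. Over all 54 lists, with a gene counted in each list that holds it, there were 112 higher and 223 lower calls. They were 65 and 94 without VCS replicate 3, when 49 lists held fewer calls, 87 and 131 without TAC replicate 3, 82 and 119 without DMSO replicate 3, and 112 and 278 without CSA replicate 3. Ranges in brackets below are the counts with any 1 of the 12 libraries left out. The counts with all libraries are to be read beside 11.8% of all tested genes called higher and 11.1% lower.

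Among signalling lists, BMP and SMAD targets had 1 of 22 members higher (1 to 2) and 6 lower (1 to 8, with 1 without VCS replicate 3). TGF-beta targets had 3 of 27 higher (3 to 4) and 6 lower (2 to 6), and glucocorticoid receptor targets 1 of 21 higher (0 to 1) and 6 lower (1 to 7), with the lowest of these lower counts without VCS replicate 3. NF-kB and inflammatory genes had 3 of 34 higher (2 to 5) and 5 lower (1 to 7), Wnt targets 1 of 19 higher (0 to 1) and 3 lower (1 to 5), Notch genes 2 of 16 higher (1 to 3) and 2 lower (0 to 2), and p53 targets 4 of 28 higher (2 to 6) and 3 lower (0 to 3). With all libraries, the counts of these 4 lists lay near the shares over all tested genes. Without VCS replicate 3 their lower counts were 1, 1, 0 and 0.

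Among stress and metabolism lists, counts are set against 11.8% of all tested genes called higher and 11.1% lower. NRF2 targets had 2 of 28 members higher (2 to 3) and 6 lower (5 to 7). TXNRD1, the thioredoxin reductase among them, averaged 317 ± 25.4 CPM in the libraries numbered 3 and 437 ± 48.8 CPM in the others (SD, log2 -0.46, SE 0.08, adjusted p = 0.0019) without overlap. SREBP2 targets had 3 of 25 higher (0 to 3) and 4 lower (0 to 5), SREBP1 targets 2 of 18 higher (1 to 2) and 3 lower (0 to 5), fatty acid oxidation and lipid droplet genes 2 of 27 higher (1 to 2) and 5 lower (1 to 6), and CDK inhibitors and quiescence genes 4 of 27 higher (3 to 6) and 2 lower (1 to 2). All calls in edgeR were lower for proteasome and ubiquitin genes (6 of 28, 2 to 7), replication-dependent histones (3 of 21, 3 to 5), metallothionein and zinc genes (2 of 10, 0 to 2) and circadian clock genes (2 of 19, 1 to 3).

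Several adhesion and matrix lists held more lower calls without CSA replicate 3. Over all tested genes, 2714 were called lower in that fit, against 2203 with all 12 libraries (11.1%, beside 11.8% higher). Of 29 tested integrin and focal adhesion genes 3 were lower, but 14 were lower without CSA replicate 3 and 0 without VCS replicate 3. Basement membrane genes had 3 of 23 higher and 3 lower, 1 and 9 without CSA replicate 3 and 4 and 0 without VCS replicate 3. Matrix proteases and inhibitors had 5 of 27 higher and 1 lower, 3 and 5 without CSA replicate 3 and 3 and 0 without VCS replicate 3. Mesenchymal regulators had 1 of 17 higher (1 to 2) and 2 lower (1 to 5), and MHC class I genes 1 of 18 higher (0 to 1) and 1 lower (1 to 4), with 5 and 4 lower without CSA replicate 3. Of 21 epithelial adhesion genes 1 (OCLN) was higher. IGFBP3, the binding protein of insulin-like growth factors counted with the YAP and TGF-beta targets, averaged 861 ± 107 CPM in the libraries numbered 3 and 637 ± 99.7 CPM in the others (SD, log2 0.44, SE 0.05, adjusted p = 0.000492), and CSF1, a growth factor of macrophages, averaged 94.3 ± 16.2 CPM in the libraries numbered 3 and 65.8 ± 6.99 CPM in the others (log2 0.51, SE 0.09, adjusted p = 0.00301).

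Markers of other cell types were called as follows, set against 11.8% of all tested genes called higher and 11.1% lower. These lists are short, so a low count does not show that a cell type was unchanged. Fibroblast and mesangial markers had 1 of 13 higher (THY1) and 1 lower (DCN), with summed levels of 5512 to 7698 CPM in the libraries numbered 3 and 4972 to 5919 CPM in the others. Leukocyte markers had 1 of 11 higher and 2 lower (205 to 282 CPM in the libraries numbered 3, 202 to 258 CPM in the others), and 1 of 13 endothelial markers was lower (10.5 to 16 CPM in the libraries numbered 3, 11.8 to 23.1 CPM in the others), as were 2 of 9 kidney tubule markers (98.1 to 114 CPM in the libraries numbered 3, 100.0 to 118 CPM in the others, with UMOD and SLC22A6 at 0 in all libraries). Keratinocyte markers had 1 of 15 higher and 1 lower (241 to 308 CPM in the libraries numbered 3, 237 to 327 CPM in the others). Of 15 parietal epithelial markers 1 was lower (5024 to 5162 CPM in the libraries numbered 3, 4992 to 5268 CPM in the others), of 14 airway and surfactant transcripts 1 (41.0 to 53.9 CPM in the libraries numbered 3, 42.8 to 66.7 CPM in the others), and of 11 adipose, muscle and neural markers 2 (294 to 317 CPM in the libraries numbered 3, 298 to 394 CPM in the others, ADIPOQ at 0 in all libraries). None of 19 liver plasma proteins (309 to 552 CPM in the libraries numbered 3, 303 to 630 CPM in the others) and none of 3 erythroid markers (3.71 to 6.36 CPM in the libraries numbered 3, 3.29 to 5.62 CPM in the others, AHSP at 0 in all) passed in edgeR, and none had an unadjusted p under 0.05 there (DESeq2 called 0 in either list). With any 1 library left out, each of these marker lists held 0 or 1 higher and 0 to 3 lower calls.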

How the data were processed

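Poly(A) RNA was sequenced from 12 cultures of a human podocyte line, with 3 libraries in each of 4 treatments, and per the labels' protocols the libraries carried in-line UMIs and ERCC spike-in RNAs. Salmon and the GRCh38 build are named in the submitters' processing notes. The deposited table holds 62262 Ensembl genes as estimated counts per library, which were whole numbers and so had been rounded by the authors. Whether UMIs were collapsed is not stated in the sources used here, so counts may include copies of 1 molecule. No spike-in rows were in the table, so scaling on them was not run. Library totals of 28808213 to 36077072 counts set the precision, and 22339 genes had no count.

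The filter filterByExpr in edgeR 4.0.16 (R 4.3.3, minimum count 10, by treatment) left 19784 genes, of which 18900 had an entry in GENCODE 29 on GRCh38. After TMM scaling, quasi-likelihood fits in edgeR had treatment as a block and number 3 against 1 and 2 (7 residual degrees of freedom), number as a factor (6), or number 3 by treatment (4). Two-sided p-values were adjusted by Benjamini-Hochberg over all tested genes, with a threshold of 0.05. Levels are CPM on TMM-scaled libraries, and differences within a treatment are of log2 CPM with a prior count of 2. The scripts were tested on simulated data. Alternatives were RLE size factors, no filter, no block, robust estimation, glmTreat, DESeq2 1.42.0, no mitochondrial genes, and each library or treatment left out.

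The members and the 54 gene lists (1267 genes, 1192 tested) were chosen with earlier results of these data known. Genes were drawn from several sets, and not every gene of a set is described. The first held up to 15 called genes per direction with the largest change. In these, number 3 lay on the same side of both other libraries in every treatment. The others were up to 4 members of each list by p, genes of the interaction test and a few fixed genes. Genes said to be named after their values were seen came in addition. Undescribed genes of the first set include those with its largest changes. They are TGFB2-OT1 (log2 1.73), CERS6-AS1 (1.69) and MKRN9P (1.67) among the higher, and ABCF2-H2BK1 and SMARCA5-AS1 (-1.23 each) among the lower. Only genes with a mean log2 CPM of at least 1 were taken by rule. Members named within a list's count are all those called, unless introduced by among or include, which give only part of them. Calls of overlapping genes and near-identical copies are uncertain, since whether the counting used strand is not stated. Promoters are from RefSeq (GRCh38.p14).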

Additional observations from a re-analysis of the deposited data

Results flagged for a closer look

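Within groups of 4 or 8 values, the gap of the end value to its nearest neighbour was compared with Dixon's limit, which chance passes in about 1 of 20 groups. It was passed in 7 of 54 gene lists, taking the median difference of number 3 in the 4 treatments. In CSA, respiratory chain subunits stood at -0.33 (-0.02 to 0.04 in the other treatments), the unfolded protein response at 0.26 (-0.10 to -0.06), heat shock genes at -0.10 (-0.02 to -0.01), TGF-beta targets at 0.25 (-0.13 to -0.07) and leukocyte markers at -0.32 (-0.10 to -0.08). In VCS, mitochondrially encoded RNAs stood at 1.19 (0.48 to 0.58) and circadian clock genes at -0.13 (-0.07 to -0.06). The difference in CSA was thus the end value in 5 of the 7 lists, and it rests on all 3 CSA libraries.

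Among 12 measures of whole libraries, the share of counts in long noncoding RNA genes stood apart in CSA replicate 3, at 1.44% against 1.73 to 1.78% in the other libraries numbered 3. Among 40 genes, 3 stood apart within the libraries numbered 3: NEAT1 at 1277 CPM and MYC at 34.9 CPM in CSA replicate 3, and IGFBP3 at 1021 CPM in TAC replicate 3. The others were at 1578 to 1636, 26.5 to 27.8 and 793 to 823 CPM. This check did not take the level of each treatment into account. IGFBP3 had 767 and 802 CPM in TAC replicates 1 and 2, against 554 to 660 CPM in the other libraries so numbered. MYC had 44.5 and 48.8 CPM in CSA replicates 1 and 2, against 36.8 to 45.9 CPM. NEAT1 had 886 and 1082 CPM there, against 843 to 1265 CPM. Among the 8 other libraries PFKFB4 was lowest in VCS replicate 2, at 134 CPM against 161 to 185 CPM.

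The difference of number 3 was unlike between treatments for ITGB1P1, PEDS1-UBE2V1 and SPANXA2, by the interaction test in edgeR (adjusted p = 0.0319 each). SPANXA2 had 0 counts in CSA and TAC replicate 3, 33 in VCS replicate 3 and 19 in DMSO replicate 3, against 0 in both other VCS libraries and 21 to 39 in the other CSA, TAC and DMSO libraries.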

How the results depend on the processing

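The counts of genes called (2334 higher, 2203 lower) stayed within 1.5 times under RLE size factors, no filter, no treatment block, number as a 3-level factor, no mitochondrial genes, robust estimation and DESeq2. Against a 1.2-fold minimum change, glmTreat called 347 higher and 103 lower. Leaving out 1 library gave 1009 to 2487 higher and 840 to 2714 lower, both lowest without VCS replicate 3. Leaving out a treatment gave 1227 and 940 (TAC), 1007 and 789 (VCS), 1484 and 1000 (DMSO) and 2576 and 2732 (CSA), each with fewer samples. The interaction count of 3 became 935 without the filter and 237 in DESeq2's likelihood ratio test, and the 136 genes between numbers 2 and 1 became 785 without the filter; the cause was not tested. The mean difference in the share of the top 100 genes (3.26 percentage points) turned to -0.253 without mitochondrial genes. Of 221 named and called genes, 59 kept their call under every setting tried, and none changed sign. The test against a 1.2-fold minimum change, a stricter question, kept 60 by itself. The next lowest number was 142, without the VCS group. Counts per list without VCS or CSA replicate 3 were added after seeing the data.

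Same-numbered libraries deviated together to unequal degrees (correlations of 0.09 to 0.31 for number 1, 0.01 to 0.25 for number 2 and 0.19 to 0.53 for number 3), and as some pairs were below 0.1 the numbers were not taken to pair the samples, although 11 of 12 libraries correlated best with libraries of their own number and every pair of number 3 was above 0.1. With the replicate number as a block, 34 genes differed between treatments, against 24 with number 3 as a term and 10 with no term for the number.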
